A study of Mus musculus with 2 samples.

Results

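The 87 genes described here encode the proteins of the cytosolic ribosome and their close relatives, measured in total RNA of mouse hippocampus. They are the protein-coding genes named Rpl or Rps followed by a number, with Rpsa, Rplp0, Rplp1, Rplp2 and Fau, among 22028 protein-coding and 55536 annotated genes. Names of the Rps6k kinases and names holding -ps, the mark of a pseudogene, were left out. Of the 87, 32 encode core proteins of the small subunit, 46 core proteins of the large subunit, and 9 are paralogs or genes that only carry a similar name. Rack1, a core ribosomal gene outside the name rule, was set beside the members.

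Both libraries belong to a single group, replicates 1 and 2, so no condition was compared and no test was possible. The tissue was labelled a layer of hippocampus from B6CASTF1/J females aged 36 days, hybrids of the C57BL/6J and CAST/EiJ strains. Each library was made from 300 ng of total RNA with external ERCC spike-in RNAs, and the labels name the spike-in profile for stranded libraries with ribosomal RNA reduced. The labels give the libraries separate biosamples but 1 donor identifier, so the spread between them may be smaller than that between unrelated mice. Reads were mapped to the reference annotation, while 1 parent of each animal was CAST/EiJ, and the effect of that parent's sequence on shared or near-identical genes was not tested.

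The libraries held 32443497 and 30125183 expected counts, and they differed in tissue content. The 10 choroid plexus markers, none at 0 in both, summed to 27.1 TPM in replicate 1 and 1301 TPM in replicate 2, and all 7 compared were over 25% higher in replicate 2. Of 5 meningeal markers compared, 4 were over 25% higher in replicate 2. Oligodendrocyte markers summed to 1511 and 1151 TPM, with 5 of 6 over 25% lower. All 6 pan-neuronal markers (2355 and 2109 TPM in sum), all 6 of hippocampal neurons (839 and 766 TPM) and all 5 of astrocytes (725 and 727 TPM) were detected. Over 25% lower in replicate 2 were 2 of the 6 hippocampal neuron markers, Neurod6 and Wfs1, and 0 of the pan-neuronal and astrocyte markers were over 25% apart. In bulk RNA fewer cells of a type and less RNA per cell cannot be told apart. The part of these tissue differences in the values below was not tested.

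The eukaryotic ribosome is built from ribosomal RNA and one copy of most ribosomal proteins, with the stalk proteins Rplp1 and Rplp2 present as dimers, so cells need the proteins in nearly equal amounts. Most of these mRNAs are short and abundant and begin with a run of pyrimidines called a 5' terminal oligopyrimidine (TOP) tract, through which the kinase mTOR and the binding protein Larp1 adjust their translation. In neurons they are also known from axons and dendrites. Each gene usually has a single intron-bearing copy and many processed pseudogenes, intronless copies made from its mRNA, which makes short reads hard to place.

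A pyrimidine tract at the annotated start was more frequent among core genes than among all genes, but most core genes lacked its strict form at the exact annotated base. RefSeq promoters on the GRCm38.p6 assembly (250 bases before the start and 50 from it on) were matched by symbol for 67 of the 87 genes, 58 of them core genes. Among the core genes with no matched entry were Rpl3, Rpl7, Rpl8, Rpl17, Rpl21, Rpl23a, Rpl29, Rpl30, Rpl32, Rpl36, Rplp1, Rps14, Rps20, Rps27a and Rps29. Some genes have several annotated starts, and a gene was counted where any of them held the feature. By this count 14 of 58 core genes (24.1%) had a C at the start followed by C or T at each of the next 4 bases, against 813 of 27025 genes in the table (3.01%). A run of 8 or more C or T lay between 15 bases before and 25 bases after a start in 29 of 58, against 17.5% of all genes. With only the first listed start of each gene, these were 13 of 58 (22.4%, against 2.49%) and 26 of 58 (44.8%, against 15.2%). The strict form depends on the exact base annotated as the start. Rpl27a lacked it there in spite of a run of 20 pyrimidines that began at base -4. Rpl18 lacked it with a run of 10 that began at the base after the start. Whether the annotated starts are those used in this tissue was not tested. The windows below, each at the gene's first listed start, show 10 bases before the start and 20 from it on. They run 5' to 3' on the gene's strand, with the longest pyrimidine run in capitals. The first 9, from both subunits, were picked from the 13 genes with a C at that start and C or T at the next 4 bases. They are therefore not typical of the 58. Rpl41 and Rpl5 follow, the first with the highest RNA level and the other with the second lowest.
Rps6, chr4:86857348-86857377, minus strand: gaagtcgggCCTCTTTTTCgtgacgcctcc
Rps18, chr17:33955646-33955675, minus strand: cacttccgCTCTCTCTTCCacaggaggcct
Rps27, chr3:90213629-90213658, minus strand: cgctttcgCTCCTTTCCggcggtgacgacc
Fau, chr19:6057937-6057966, plus strand: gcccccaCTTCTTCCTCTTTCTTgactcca
Rpl15, chr14:18270967-18270996, minus strand: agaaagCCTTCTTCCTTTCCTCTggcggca
Rpl28, chr7:4792955-4792984, plus strand: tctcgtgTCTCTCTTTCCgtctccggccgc
Rpl35, chr2:39005112-39005141, minus strand: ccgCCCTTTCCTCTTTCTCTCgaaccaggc
Rpl38, chr11:114668570-114668599, plus strand: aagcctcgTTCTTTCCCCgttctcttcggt
Rplp2, chr7:141447641-141447670, plus strand: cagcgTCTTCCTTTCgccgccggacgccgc
Rpl41, chr10:128549149-128549178, minus strand: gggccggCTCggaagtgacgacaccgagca
Rpl5, chr5:107900518-107900547, plus strand: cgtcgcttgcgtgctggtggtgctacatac
In the first 9 the capital run spans the annotated start. In the Rpl41 window the longest run holds 3 pyrimidines and ends just before the start, and in the Rpl5 window none is marked because its longest run, 4 bases, lies upstream of the window.

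Over the whole 300-base promoters at any annotated start, searched on both strands, the motif CCGGAAG was found in 24 of 58 core genes (41.4%) and in 9.93% of all genes. GGGCGG was found in 36 (62.1%, against 38.2%), AAGATGGC in 6 (10.3%, against 3.19%), CTTCC in 53 (91.4%, against 73.9%) and TATAAA in 6 (10.3%, against 15.7%). These are matches of letters and do not show binding, and the CTTCC count includes the reverse complement GGAAG within CCGGAAG.

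Ribosomal protein RNA was abundant, and most core genes lay within a narrow range of levels. Levels are in TPM, the abundance of a transcript relative to all transcripts after correction for RNA length, from the first of 2 deposited quantifications unless the second is named. At 1 TPM or more in both libraries, 84 of the 87 genes were detected, all 78 core genes among them, while 57.6% of all protein-coding genes reached that level. The 87 genes took 1.5% of all TPM in replicate 1 and 1.47% in replicate 2, and 3.41% and 3.47% of the TPM of protein-coding genes. Of expected counts, the deposited estimates of reads per gene, they took 0.596% and 0.602%.

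The median core gene stood at 167 TPM in replicate 1 and 165 TPM in replicate 2 (166 ± 1.7, SD, n = 2), against 14.7 TPM in each library for all detected protein-coding genes. The small subunit had a median of 176 ± 1.4 TPM and the large subunit 157 ± 7.0 TPM (SD over the 2 library medians). In the second quantification the medians did not differ, with 353 ± 8.7 TPM for the small and 353 ± 14 TPM for the large subunit. In both libraries 65 of 78 core genes lay within 2-fold of the core median, and 64 reached 100 TPM in both. The 90th percentile exceeded the 10th 3.50-fold in replicate 1 and 3.82-fold in replicate 2, and the highest gene exceeded the lowest 38.7-fold and 39.0-fold. The small subunit was tighter, with a ratio of 2.94 in each library between those percentiles, than the large subunit, with 4.07 and 4.42. The order of the 78 genes was nearly the same in the 2 libraries (Spearman's rho 0.990 across genes, which share library and annotation). Longer genes tended to have lower TPM (rho -0.46 between mean TPM and gene length). TPM divides by length, and mean counts, which do not, had a rho of 0.248 with gene length.

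**Figure D1:**
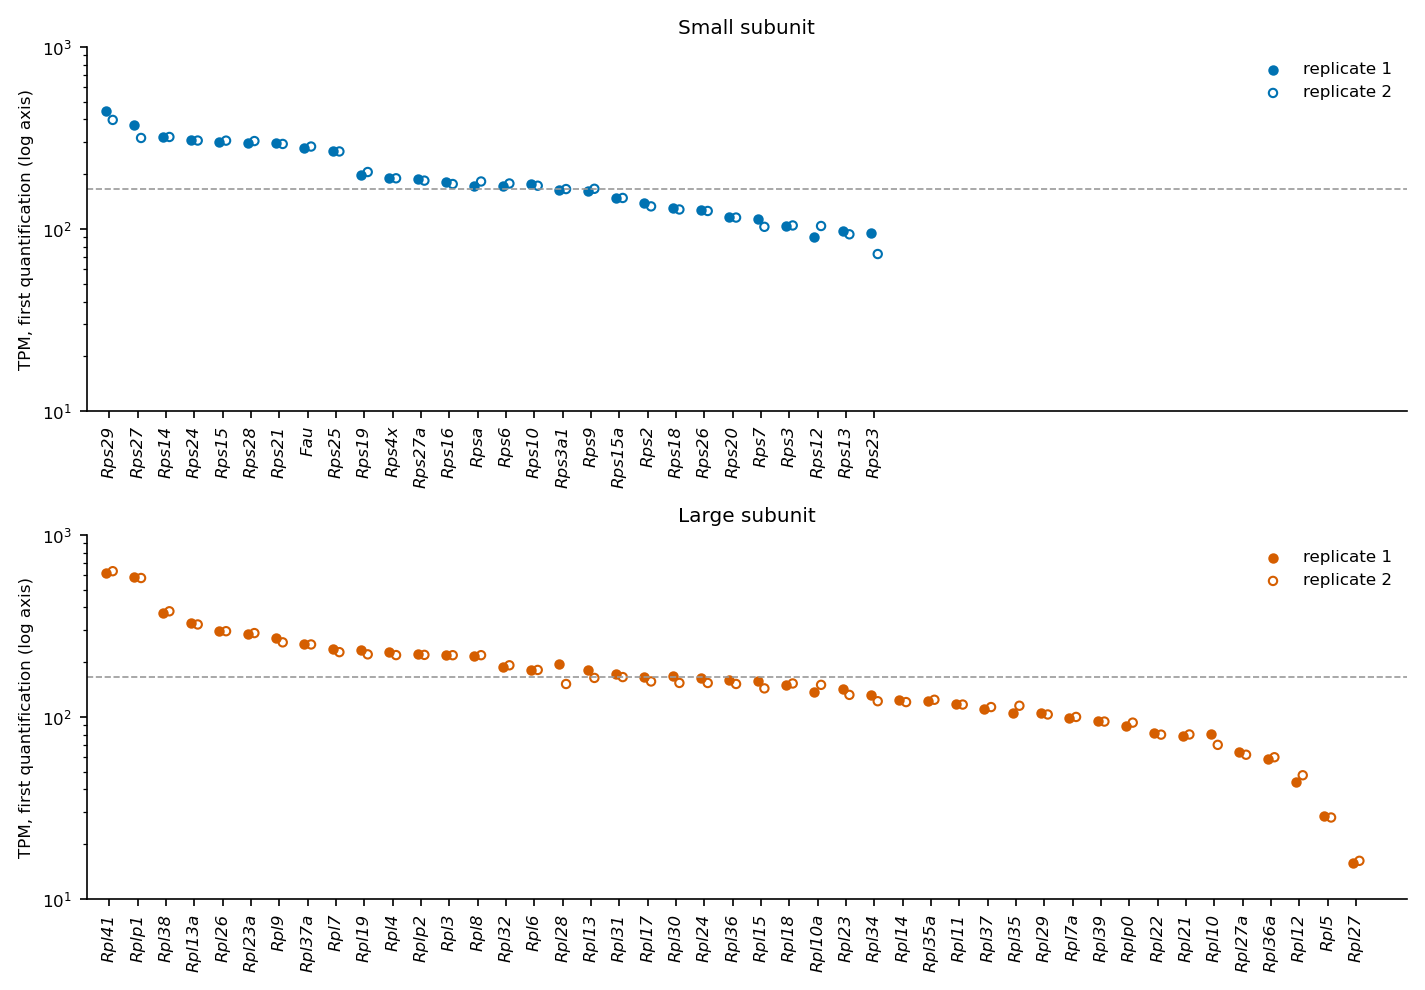
RNA level of core genes in TPM (log axis), small subunit above and large subunit below, filled points replicate 1 and open points replicate 2, with the dashed line at the core median of 166 TPM. Most genes lie close to the line, Rpl41 and Rplp1 stand highest, and Rpl12, Rpl5 and Rpl27 form a tail below 50 TPM.

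Rpl41, which encodes the smallest ribosomal protein, had the highest level, 614 TPM in replicate 1 and 632 TPM in replicate 2. The gene lies at chr10:128548114-128549305 (mm10) on the minus strand. Its coding sequence, shown without the stop codon because it is short enough to read whole and belongs to the most abundant member, is 75 bases long.
Rpl41: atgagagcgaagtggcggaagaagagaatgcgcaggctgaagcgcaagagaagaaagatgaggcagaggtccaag
Rplp1, an acidic protein of the stalk that recruits translation factors, followed with 590 and 580 TPM, below Rpl41 in both libraries. Rps29, a small zinc-binding protein of the small-subunit head, stood at 447 and 398 TPM. Rpl38 stood at 370 and 381 TPM and Rps27, another zinc-binding protein, at 372 and 316 TPM, so their order differed between the libraries. Rpl38 is known for its part in the translation of Hox mRNAs.

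The next genes lay close together. Rpl13a, a protein known to be released from the ribosome in interferon responses, had 327 and 322 TPM. Rps14, of the small-subunit platform, had 319 and 320 TPM. Rps24 had 308 and 306 TPM, Rps15 302 and 306 TPM, and Rps28, which lies near the mRNA exit, 297 and 304 TPM. Rps15 and Rps28 overlapped across the libraries, so their order is not resolved. Between the 10 highest and the 10 lowest core genes lay 58 others, from 90.4 TPM (Rps12 in replicate 1) to 297 TPM (Rps21 in replicate 1).

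At the other end Rpl27 was lowest, with 15.9 TPM in replicate 1 and 16.2 TPM in replicate 2, then Rpl5 with 28.5 and 28.1 TPM and Rpl12 with 43.9 and 47.9 TPM. Rpl36a had 58.7 and 60.1 TPM and Rpl27a 64.3 and 62.1 TPM. These 5 did not overlap one another in the 2 libraries of the first quantification. In the second quantification Rpl27a had 487 and 466 TPM, above the core median of 350 TPM there. Rpl5, with 139 and 139 TPM, then lay within the range of Rpl12, with 104 and 153 TPM. Rpl36a, with 205 and 202 TPM, lay within that of Rpl27, with 219 and 190 TPM. Rpl10, the late-assembling protein at the peptidyl transferase centre, had 80.9 and 70.3 TPM. Rpl21 had 78.8 and 80.2 TPM, Rpl22 81.4 and 80.1 TPM and Rps23, which sits at the decoding centre, 94.6 and 72.9 TPM. The ranges of Rpl10, Rpl21 and Rpl22 all overlapped that of Rps23. Rplp0 had 89.3 and 93.2 TPM, also within the range of Rps23. Of these low genes, Rpl27, Rps23, Rpl10 and Rpl21 were over 2-fold higher in the second quantification, as described further on. Rps23, Rpl10 and Rpl21 were not among the 10 lowest there, while Rpl27, with 219 and 190 TPM, still was. In the second the lowest were Rpl36 with 90.5 and 114 TPM, Rps3, Rpl12 and Rpl5.

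By role, the 4 genes of the P stalk and its base ranged widely. Rplp0, the scaffold of the stalk, stood at 91.2 ± 2.8 TPM, Rplp1 at 585 ± 6.8 TPM, Rplp2, the partner of Rplp1, at 221 ± 2.1 TPM and Rpl12, at the stalk base, at 45.9 ± 2.8 TPM (SD, n = 2). In the second quantification Rplp1 had 683 and 649 TPM and Rplp2 303 and 407 TPM, while Rplp0 had 232 and 241 TPM and Rpl12 104 and 153 TPM, in the same order. Rpl5 and Rpl11, which carry 5S RNA to the ribosome and bind Mdm2 when assembly is disturbed, had 28.3 ± 0.33 and 118 ± 0.81 TPM, and Rpl11 was also the higher in the second quantification, with 434 and 435 TPM against 139 and 139 TPM.

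Rps27a, made as a fusion with ubiquitin, had 188 and 185 TPM, and Fau, made as a fusion with a ubiquitin-like protein, had 280 and 284 TPM. Outside the name rule, Rack1, a signalling scaffold on the small subunit, had 101 and 98.8 TPM, within the range of the core genes. The X-linked core genes were Rps4x with 190 and 190 TPM, Rpl10 with 80.9 and 70.3 TPM, Rpl36a with 58.7 and 60.1 TPM and Rpl39, a protein of the exit tunnel, with 94.8 and 94.4 TPM. In the first quantification 3 of the 4, all but Rps4x, were below the core median. In the second, with a core median of 350 TPM, Rpl10 was above it (491 and 471 TPM) and Rps4x below it (322 and 312 TPM). The 15 genes listed here as mutated in Diamond-Blackfan anemia, a failure of red cell formation, had a median of 155 ± 3.4 TPM. The exit tunnel genes Rpl4, Rpl17 and Rpl39 had a median of 162 ± 7.0 TPM.

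The paralogs fell into 3 kinds. By TPM, Rpl22l1 and Rpl36al were as abundant as their core partners, Rpl7l1 and Rps27l were present at a small share, and Rpl3l, Rpl10l and Rpl39l were at or near 0. Rpl22l1, a paralog of Rpl22, had 80.5 TPM in replicate 1 and 85.9 TPM in replicate 2, or 50.7% ± 1.5 of the pair's TPM. Its counts were lower, 742 and 775 against 1749 and 1613 for the longer Rpl22. Of the Rpl22l1 counts, 87.1% and 80.2% fell on transcripts not annotated as protein-coding (55.7% and 78.4% in the second quantification). Rpl36al, a close relative of the X-linked Rpl36a, had 77.8 and 76.3 TPM, or 56.5% ± 0.76 of the pair. The second quantification gave Rpl22l1 57.0% ± 2.2 and Rpl36al 40.6% ± 1.3, so which of Rpl36a and Rpl36al was the higher depended on the quantification. Rpl7l1, a ribosome assembly factor related to Rpl7, took 8.22% ± 0.18 of its pair.

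Rpl3l, the form of Rpl3 known from heart and skeletal muscle, had 2 and 4 counts against 5371 and 5280 for Rpl3. Rpl10l, a retrocopy known from testis, had 0 counts in both libraries, which allows up to 0.0929 and 0.1 CPM (counts scaled to a common library total, from a limit of 3 counts per library, covering counting error only). Rpl39l, also known from testis, had 2 counts in replicate 1 and 1 count in replicate 2, against 1141 and 1083 for Rpl39. The coding sequences of Rpl39 and Rpl39l were 85.0% identical over 153 bases, and 2.19% of the 31-base words of the Rpl39l transcript occurred in another gene. Both are printed because they show how a nearly absent paralog differs, with the bases of Rpl39l that differ from Rpl39 in capitals.
Rpl39: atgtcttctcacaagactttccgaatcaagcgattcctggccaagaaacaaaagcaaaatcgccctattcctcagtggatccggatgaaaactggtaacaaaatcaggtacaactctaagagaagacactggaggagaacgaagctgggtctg
Rpl39l: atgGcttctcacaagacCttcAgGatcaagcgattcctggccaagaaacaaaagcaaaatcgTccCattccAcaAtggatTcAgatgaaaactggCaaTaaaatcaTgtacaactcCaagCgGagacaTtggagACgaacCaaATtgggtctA

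In the Rps27 family a paralog and an identical copy stand side by side. Rps27l, known as a p53 target, had 148 and 162 counts, all whole numbers, which came to 15.2 and 17.8 TPM or 4.62% ± 0.98 of the pair with Rps27. Rps27rt, a retrogene copy, had 71.3 and 100.3 counts with a standard deviation of 27.7 and 32.5 in the assignment of reads, and 0 counts in both libraries in the second quantification. Its coding sequence was identical to that of Rps27 over all 252 bases, while that of Rps27l differed at 60 bases. The sequence of Rps27 below is therefore also that of Rps27rt, and the capitals in Rps27l mark the bases at which it differs.
Rps27: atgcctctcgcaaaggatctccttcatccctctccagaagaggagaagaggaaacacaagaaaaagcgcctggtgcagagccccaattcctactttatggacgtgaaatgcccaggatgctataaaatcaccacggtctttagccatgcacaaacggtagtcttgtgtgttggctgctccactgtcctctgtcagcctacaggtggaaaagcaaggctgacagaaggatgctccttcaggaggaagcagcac
Rps27l: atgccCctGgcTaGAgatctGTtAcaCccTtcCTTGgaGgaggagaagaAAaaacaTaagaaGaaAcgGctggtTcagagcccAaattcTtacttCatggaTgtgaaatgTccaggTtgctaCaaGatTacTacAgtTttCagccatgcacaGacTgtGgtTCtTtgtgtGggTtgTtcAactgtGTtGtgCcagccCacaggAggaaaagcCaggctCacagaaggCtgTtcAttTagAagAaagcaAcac
Rps19bp1, which carries the Rps name as a binding partner of Rps19, had 14.3 and 13.8 TPM. Coding identity between the other pairs was 87.7% for Rpl36a and Rpl36al, 84.7% for Rpl10 and Rpl10l, 73.0% for Rpl3 and Rpl3l and 65.9% for Rpl22 and Rpl22l1. The leading Rpl7 transcript has an incomplete coding model, so no identity is given for Rpl7 and Rpl7l1.

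**Figure D2:**
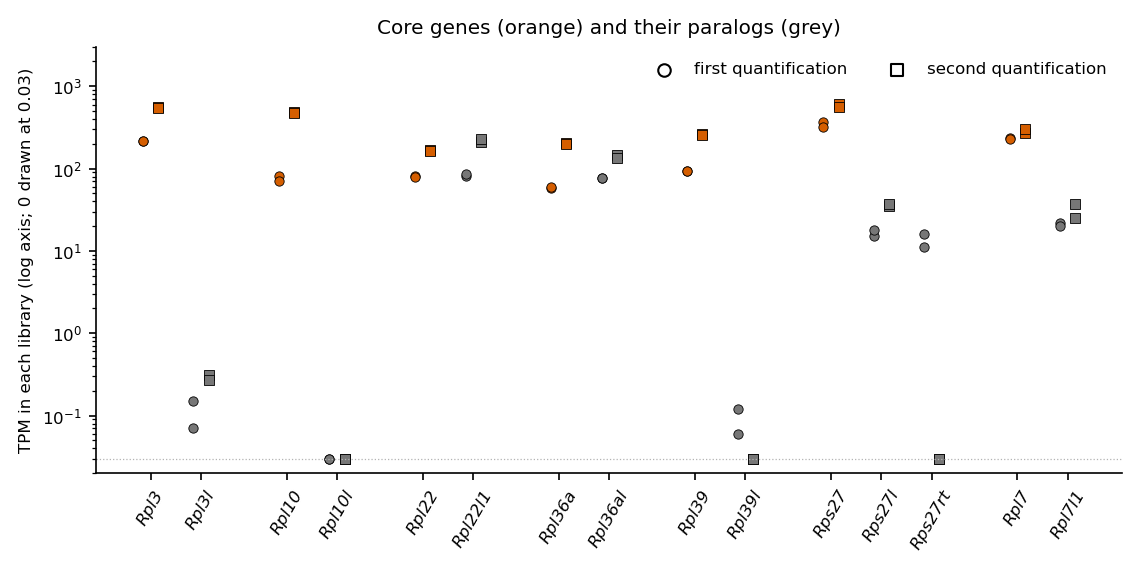
TPM of core genes (orange) and their paralogs (grey) in each library on a log axis, circles for the first and squares for the second quantification, with 0 drawn at 0.03. Rpl22l1 and Rpl36al stand level with their partners, and Rpl3l, Rpl10l and Rpl39l lie below 1 TPM.

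The 2 libraries lay close together for these genes. Log2 ratios set replicate 2 over replicate 1 after TMM scaling, which fits the libraries to the bulk of all genes. Genes are called apart where the higher library exceeded the lower by over 25%. Of the 83 members averaging at least 100 counts, 0 were apart by this measure, against 6.21% of all 12651 genes at that depth. Ratios of the 83 ran from -0.27 to 0.21 with a median of -0.005, and 36 were above and 47 below 0. Over all 12651 genes the median was -0.013, with 5778 above and 6873 below 0, a similar split. At 1.1-fold, 10 members were apart, against 29.2% of all genes. Core genes had mean counts from 207 to 7250, and of the 10209 genes in that range 3.74% were over 25% apart.

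The members farthest apart were both lower in replicate 2. Rps23 had 945 and 742 counts and Rpl28, on the surface of the large subunit, 1435 and 1130 counts, each with a log2 ratio of -0.27. Rpl10 and Rps27 followed with -0.21 each. The counts of Rps23, Rpl28, Rpl10 and Rps27 included reads shared with other genes, and in the second quantification their ratios were -0.05, -0.09, -0.05 and -0.17. Rps27l was the highest, with a ratio of 0.21. Scaled to the spike-in RNAs instead, the median of the members was 0.26 and that of all genes 0.25. Another scaling shifts every gene by nearly the same amount, so it could not change the place of the members among all genes.

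**Figure D3:**
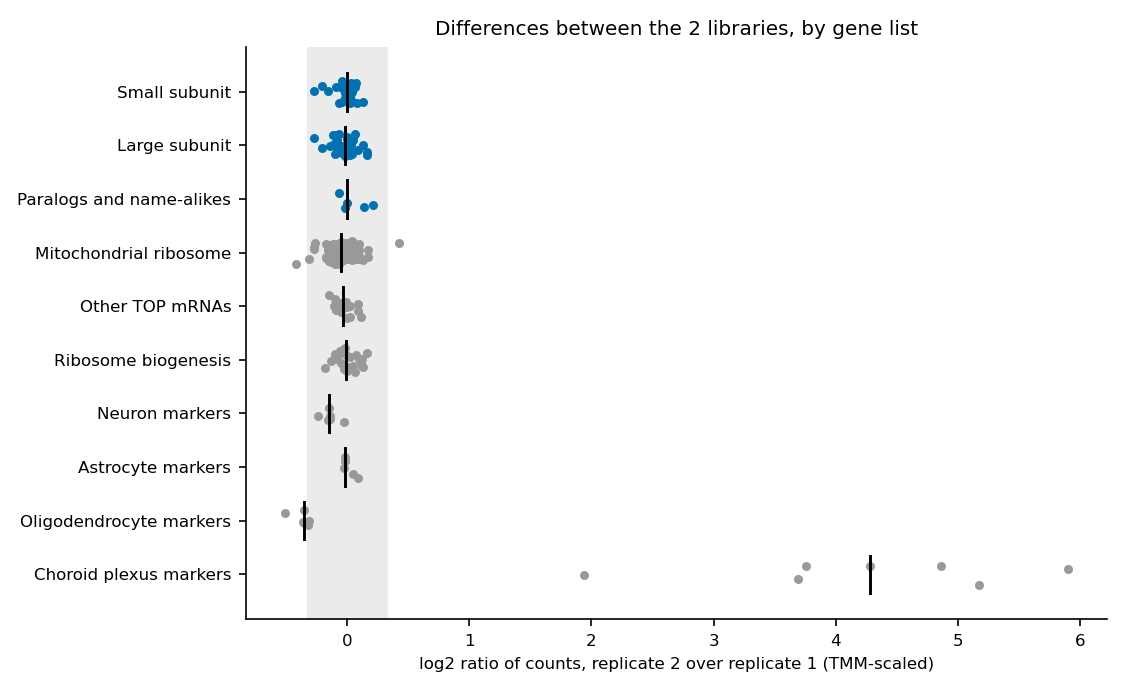
Log2 ratio of replicate 2 over replicate 1 (x, TMM-scaled) by gene list, 1 point for each gene averaging at least 100 counts, with vertical jitter for display, black bars at list medians and shading where the libraries are at most 25% apart. The 83 ribosomal protein genes (blue) lie in the shaded band, and the 7 choroid plexus markers lie far to its right.

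Other genes of the pathway were compared in the same way. The 78 mitochondrial ribosomal protein genes, encoded in the nucleus for the separate mitochondrial ribosome, stood at a median of 21.3 ± 0.13 TPM and all reached 1 TPM. Their log2 ratios ran from -0.42 to 0.42. Of the 77 compared, Mrpl54 was over 25% higher in replicate 2 and Mrps11 over 25% lower. The 18 other TOP mRNAs, Rack1 among them, had a median of 96.5 ± 1.3 TPM. Each was detected and 0 of 18 were over 25% apart. Eef1a1, the elongation factor that brings tRNA to the ribosome, was the highest of them with 1173 and 1166 TPM, and Tpt1 had 368 and 331 TPM. Of the 11 regulators of TOP mRNAs, 10 reached 1 TPM in both libraries, with Larp1 at 34.5 and 35.1 TPM and Mtor at 32.3 and 33.1 TPM, and 0 of 10 compared were over 25% apart. The 25 ribosome biogenesis genes, all detected, stood at 15.7 ± 0.42 TPM in the median, and 0 of 25 were over 25% apart. Ncl, the nucleolar protein nucleolin, had 54.5 and 55.6 TPM and Fbl, the methyltransferase of ribosomal RNA, 19.3 and 19.6 TPM.

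The placing of reads shared between near-identical genes differed between the 2 quantifications. A count that is not a whole number holds reads shared with another gene. This was so for 76 of the 83 members, where 16.7% of all genes compared had such counts. In the leading coding transcript of the median core gene, 73.4% of all 31-base words and 42.1% of all 100-base words also occurred in the annotated transcripts of another gene, overlapping genes included. The standard deviation of the read assignment, as deposited, was 0.947% of the count for the median core gene and exceeded 5% for 3 core genes, Rps12 (10%), Rpl10 (9.4%) and Rpl27 (8.2%).

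Genes named with -ps after a ribosomal protein name, 302 in all, held 24285 and 23774 counts in the first quantification, 12.9% ± 0.38 of the members' counts. In the second they held 10268 and 10788, or 5.42% ± 0.34. An average of 100 counts was reached by 34 of them in the first and by 14 in the second.

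Assigned counts, scaled to the same total per library, differed over 2-fold between the quantifications for 9 members. They were higher in the second for 4 of 83, against 0.443% of all 12646 genes compared, and lower for 5 of 83, against 1.92%, and 2.36% of all genes differed in either direction. The 4 higher in the second were Rpl27, Rps23, Rpl10 and Rpl21. Rpl27 had 206 and 208 counts in the first and 1224 and 1077 in the second, a 5.46-fold difference. In the first quantification 2 processed pseudogenes, Gm11518 and Rpl27-ps3, each held 505 counts in replicate 1 and 434 in replicate 2. Both held 0 counts in the second.

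Rps23 had 945 and 742 counts in the first and 3405 and 3186 in the second (3.88-fold). Its copy Rps23-ps1 held 2363 and 2304 counts in the first and 24.8 or fewer in the second. Rpl10 had 1327 and 1085 counts and then 3871 and 3620 (3.08-fold), and Rpl10-ps3, annotated as protein-coding in spite of its name, held 2461 and 2392 counts and then 0. Rpl21 had 1596 and 1538 counts and then 3348 and 3176 (2.05-fold). The pseudogenes Gm10240 and Gm13370 each held 723 and 768 counts and then 204 and 235. When the counts of all non-overlapping copies holding at least 10% of a gene's words were added to it, 0 of these 4 differed over 2-fold, and the log2 differences became -0.01 for Rpl27, 0.04 for Rps23, 0.02 for Rpl10 and 0.04 for Rpl21.

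Rpl5, Rpl12 and Rpl36a, also among the lowest genes, had copies with more counts than or nearly as many as their own. Gm15500 held 2977 and 2728 counts against 1094 and 1023 for Rpl5, and Gm10275 held 1493 and 1543 against 703 and 742 for Rpl12. Rpl36a-ps2 held 516 and 487 counts in the first quantification, against 601 and 568 for Rpl36a. The second gave it 0. The second quantification gave Rpl5 1.68-fold, Rpl12 1.62-fold and Rpl36a 1.87-fold more counts after scaling.

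The 5 members lower in the second quantification were Rpl36, Rps21, Rpl19, Rplp1 and Rps29. Rpl36 had 1068 and 967 counts in the first and 145 and 171 in the second, 6.51-fold fewer after scaling. Rps21 had 2070 and 1949 counts, whole in both libraries, and then 672 and 668 (3.04-fold fewer). Rplp1 had 5552 and 5202 and then 1969 and 1850 (2.85-fold fewer), and Rps29 3062 and 2595 and then 1022 and 1103 (2.69-fold fewer). Adding copies left these 4 over 2-fold apart, with log2 differences of -2.10, -1.60, -1.35 and -1.57. For Rpl19, with 3580 and 3217 counts and then 1146 and 1151 (2.99-fold fewer), the copy Rpl19-ps11 went from 116 and 107 counts to 1116 and 953, and with copies the difference was -0.70.

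The 4 that stayed apart were among the genes with the shortest annotated transcripts. Of the 83 members compared, 5 had no annotated transcript of 500 bases or more, and 4 of them were these genes. The fifth, Rpl38, differed by only -0.09 on the log2 scale. Of the other 78 members, 1 was over 2-fold lower in the second quantification. This limit of length was chosen after the values were seen, and its part in the difference was not tested.

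**Figure D4:**
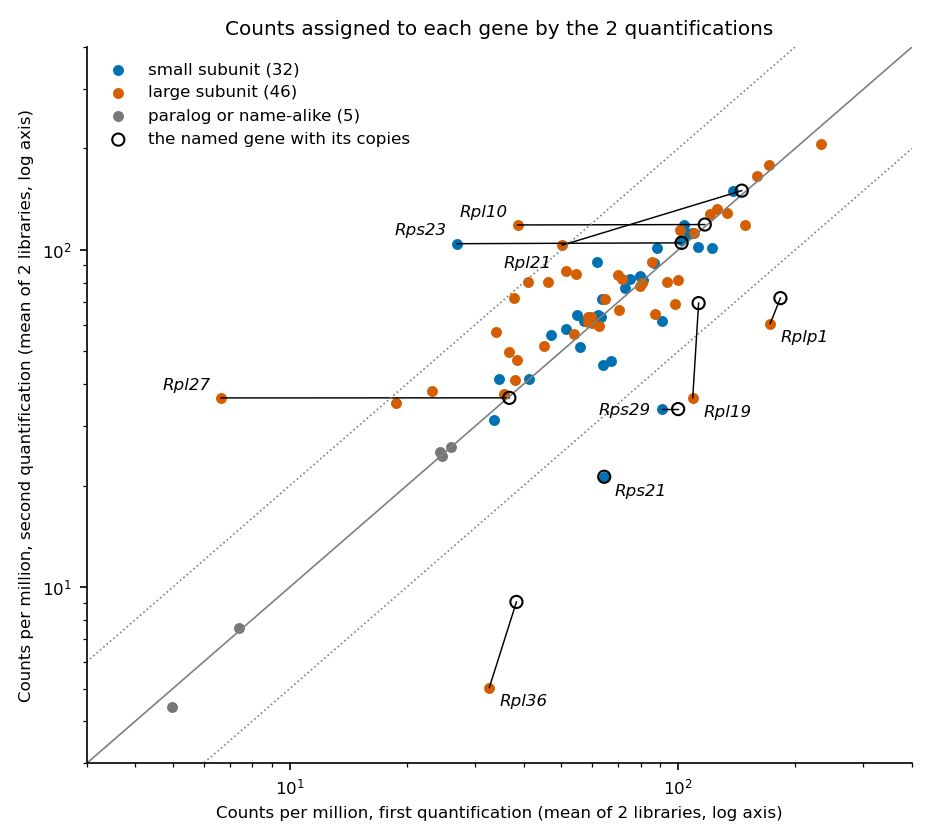
Mean scaled counts (CPM) of each of the 83 members compared in the first (x) and second (y) quantification on log axes, with the solid line at equality and dotted lines at 2-fold. Lines lead from each of the 9 discordant genes to the value with its copies added (open circles): Rpl27, Rps23, Rpl10 and Rpl21 move to the line of equality, while Rpl36, Rps21, Rplp1 and Rps29 stay below the 2-fold line.

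Scale differed too. The second quantification gave the core genes a median of 349 TPM in replicate 1 and 350 in replicate 2, and the 87 genes 3.17% and 3.21% of all TPM, while their share of counts was 0.609% and 0.625%. Detected protein-coding genes as a whole also had a higher median there, 25.3 and 26.1 TPM. The 90th percentile of the core genes exceeded the 10th 2.97-fold and 3.30-fold, and Rpl41 stayed the highest with 1529 and 1540 TPM. Across the 78 genes the mean TPM of the 2 quantifications had a rho of 0.619, a description of the same libraries.

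Annotation of the transcripts divided the counts again. Besides mRNAs, GENCODE lists for these genes transcripts with a retained intron, targets of nonsense-mediated decay (NMD, the breakdown of mRNAs with an early stop codon) and processed transcripts without a reading frame. The 87 genes had 514 annotated transcripts, 244 of them protein-coding. In the second quantification 25.6% ± 0.49 of the members' counts fell on transcripts not annotated as protein-coding, 13.6% ± 0.29 with a retained intron, 9.72% ± 0.10 processed and 2.28% ± 0.10 NMD. In the first the share was 15.5% ± 0.37, with 7.15% ± 0.14 retained, 4.40% ± 0.014 processed and 3.91% ± 0.24 NMD.

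Rps27l, Rps27, Rpl37 and Rps18 were among the members with the largest non-coding shares in the second quantification. For Rps27l it was 100% in both libraries, against 24.4% and 12.2% in the first quantification. For Rps27 it was 99.7% and 99.3%, against 2.44% and 3.19%, and the leading transcript was 546 bases long in the second and 345 in the first. Rpl37 and Rps18 were high in both, Rpl37 with 98.5% and 99.0% against 74.5% and 83.2%, and Rps18 with 93.0% and 99.5% against 87.9% and 82.6%. For Rps27l and Rps27 the quantifications were farther apart than the libraries.

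Some genes went the other way. Rpsa, a small-subunit protein also known as a laminin receptor, had 76.9% and 80.8% in the first quantification, led by an NMD transcript, and 26.2% and 26.3% in the second. Rpl24 had 75.1% and 78.1% and then 7.39% and 11.1%.

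Among 74 members at 10 TPM or more with both kinds of transcript annotated, the leading transcript was not protein-coding for 15 in the first quantification, against 8.57% of 6581 such genes, and for 26 in the second, against 10.7%. It was not protein-coding in either quantification for 11, against 5.38%: Rpl12, Rpl13a, Rpl22l1, Rpl23, Rpl35, Rpl37, Rps16, Rps18, Rps20, Rps23 and Rps26. The leading transcript differed between the quantifications for 42 of the 74, against 24.3% of all. It was longer in the second for 32, against 12.5%, and its median length over the 74 was 604 bases in the first and 702 in the second. Over all 6581 genes that median was 2921 and 2805 bases. Read-level evidence of retained introns was not analysed here.

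**Figure D5:**
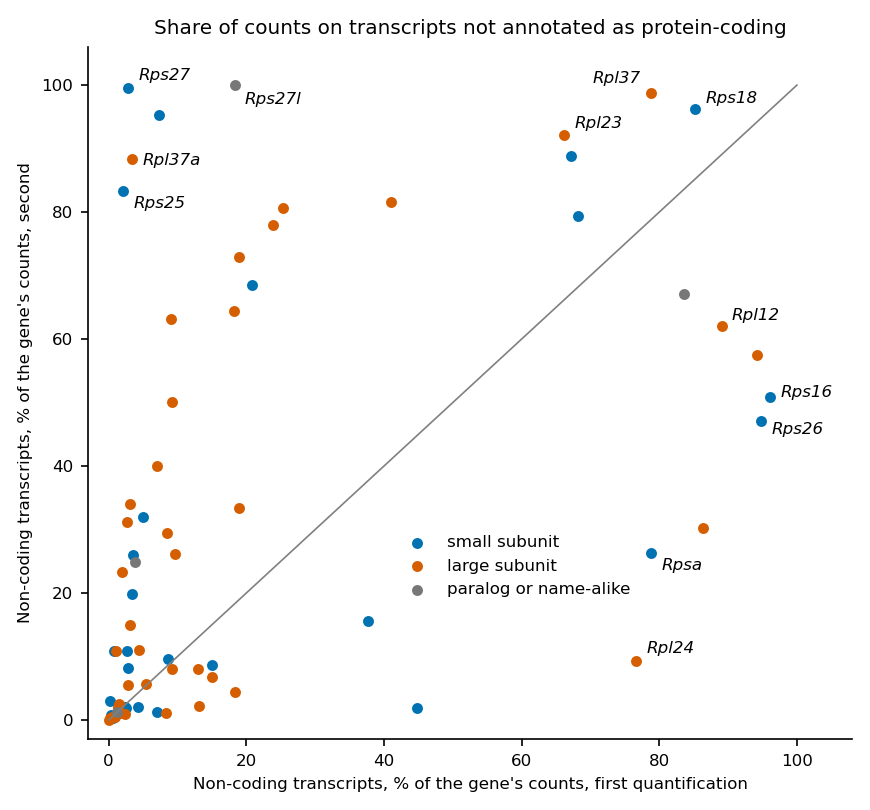
Percent of each gene's counts on transcripts not annotated as protein-coding, mean of the 2 libraries, first quantification (x) against second (y), for members with at least 1 such transcript, with the line at equality. Rps27, Rpl37a and Rps25 lie at upper left, Rpl24 and Rpsa at lower right, and apart from the cluster near 0 few genes lie on the line.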

How the data were processed

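Gene and transcript tables of 2 libraries were used as the authors deposited them. The first quantification holds expected counts and TPM, per the file headers, with a deposited standard deviation of the read assignment (a score here). Its transcript tables add a percent, per the file headers the isoform's part of the gene. The second holds the authors' estimated counts and TPM per transcript, summed here over each gene. The build was mm10 with GENCODE M21, per the labels and files. Neither software nor strand setting is given in the sources used here, so overlapping genes on opposite strands may be mixed. Expected counts summed to 32443497 and 30125183, spike-ins included.

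TMM factors came from edgeR 4.0.16 (R 4.3.3) on rounded expected counts, and libraries were compared as log2 ratios with a prior count of 0.5. A count over 0.005 from a whole number was read as shared. Quantifications were compared after scaling each library to the same total over genes (CPM). Copies were non-overlapping genes outside the list. DESeq2 1.42.0 size factors, other scalings, minimums, folds, denominators and each library alone were alternatives. Sequences came from RefSeq and GENCODE transcripts. No protein sequence was used.

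Members and lists were chosen with earlier results of these data known. Named are the 10 highest and 10 lowest core genes, all paralogs, all members past a fold limit, the 5 largest non-coding shares and the stalk, 5S, fusion and X-linked lists. Other names were chosen after their values were seen. Results of some members and of some list genes are not reported here by name.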

Additional observations from a re-analysis of the deposited data

How the results depend on the processing

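Leaving out each library in turn gave 0.596% to 0.602% of counts, 1.47% to 1.5% of TPM, a core median of 165 to 167 TPM, a percentile ratio of 3.50 to 3.82, 9 to 10 members over 2-fold apart between quantifications, -ps counts of 12.6% to 13.2%, a non-coding share of 25.2% to 25.9% and a summed paralog share of 15.3% to 16.9%. With the second quantification the members took 0.617% of counts and 3.19% of TPM, the core median was 350 TPM, the percentile ratio 3.13, the -ps share 5.42%, the summed paralog share 14.5% (16.1% in the first), and 1 member was over 25% apart between replicates (Rpl12, 0.44). The non-coding share with the first quantification was 15.5%. Against protein-coding genes only, the members took 0.748% of counts and 3.44% of TPM. In place of the percentile ratio, the highest core gene over the lowest gave 38.8. A ratio between the libraries has no value without one of them.

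The median log2 ratio was 0.259 with spike-in scaling, where that of all genes was 0.25, and 10 members were then over 25% apart. That number was 2 on deposited TPM (Rpl28 and Rps23), 1 with a mean count of 10 (Rps27rt), 3 with no minimum (Rps27rt, Rpl3l and Rpl39l) and 10 at 1.1-fold. Members apart between quantifications numbered 17 at 1.5-fold, 2 at 4-fold and 46 on TPM, and 4 with copies added, an alternative chosen after seeing the data. Except at 1.1-fold, the shares over all genes were not computed for these alternative counts. They are therefore not read as particular to the members. Taking every pseudogene with non-whole counts, whatever its parent, gave 209% of member counts, and taking pseudogenes by shared sequence, chosen after seeing the data, gave 24.1%. The cause of these moves was not tested. Of 59 alternatives, 36 stayed within the spread or within 1.5 times the count. For results given as a mean of the 2 libraries, leaving out 1 library could not move the value past the spread. Those alternatives are among the 36 and say nothing about stability. No paired analysis was possible because there is a single group. At this depth Rpl3l, Rpl10l and Rpl39l were too low for a ratio.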

Other observations

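Several genes outside the member list, left out by a pseudogene annotation or by a -ps name, held ribosomal protein sequence. Rpl37rt, annotated as a transcribed processed pseudogene, had 303 TPM in replicate 1 and 313 TPM in replicate 2, above Rpl37 itself with 111 and 113 TPM. In the second quantification the order was the reverse, with 317 and 348 TPM for Rpl37rt against 579 and 592 TPM for Rpl37. Its counts were 1780 and 1689 in the first quantification and 618 and 611 in the second. Rps3a2, annotated as a processed pseudogene, had 77.9 and 91.2 TPM, and Rps4l, a transcribed processed pseudogene and relative of the X-linked Rps4x, had 10.2 and 11 TPM. All counts of Rps4l in the first quantification were whole, 188 and 196, and the second gave 127 and 145.

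Of the 302 genes with -ps names, 6 were annotated as protein-coding. Rpl10-ps3 had 156 and 160 TPM, above Rpl10, and Rps12-ps3 had 124 and 124 TPM, above Rps12 in both libraries. In the second quantification Rpl10-ps3 held 0 counts and Rps12-ps3 held 19.6 and 241 counts, against 1153 and 1096 in the first. Rpl9-ps6 had 166 and 218 counts in the first and 0 in the second. Rpl36a-ps1 had 8.66 and 3.62 counts, and Rpl36-ps4 and Rpl9-ps1 were at 0 counts in both libraries.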
